A study of Arabidopsis thaliana with 12 samples.

Results

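The segment described here is a stretch of *Arabidopsis thaliana* chromosome 5 around *DEMETER* (*DME*), the gene mutated in *dme-2*. Its members were chosen by position alone, as the loci numbered ATLER-5G13300 to ATLER-5G16200 in the L*er* annotation, without *DME* itself and 3 further loci. This gave 274 members of 27147 loci in the series, 73 of them before *DME* and 201 after it. A Col homolog was listed for all members but 4, and 249 members had exactly 1, always on chromosome 5. From end to end the homologs ran from AT5G03890 to AT5G06460, and only 2 of 248 neighbouring pairs were out of Col order. Of the members, 37 were listed at 0 TPM (a relative abundance of transcripts, adjusted for their length) in all 12 libraries, and 203 had a mean of at least 1 TPM. The question was whether loci next to *DME* differed between *dme-2* and WT in the same direction at 2 stages of regeneration, and whether such loci lay together.

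RNA was sequenced from 4 groups with 3 biological replicates each, all in the L*er* background. *dme-2* calli carried the *dme-2* allele of *DME* (labelled Ler dme-2/-) and came from true leaves of 2-week-old seedlings kept for 7 days on callus-inducing medium. WT calli (Ler WT) were grown the same way. *dme-2* de novo shoots were regenerated from such calli over 14 days on shoot-inducing medium, and WT de novo shoots were their controls. Only the 1 allele was used, so the mutation and any other DNA that came with it on the chromosome cannot be told apart in any comparison between the genotypes.

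*DME* encodes a DNA glycosylase that removes methylated cytosine, and loss of it can change the transcription of loci anywhere in the genome. A mutation is also passed on together with the DNA around it, and the nearer a locus lies, the less often recombination separates them. Sequence differences carried in this way can affect a locus in every tissue that uses it, whereas the targets of a regulator may respond in some tissues and not in others. For this reason changes seen at both stages were set beside the position of the loci. *DME* itself was lower at both stages, as given below, so its targets could change at both too. A change at both stages therefore does not by itself tell linked DNA from the loss of *DME*. The segment itself holds genes of many unrelated functions, among them an inhibitor of cyclin-dependent kinases, regulators of iron uptake and glucosyltransferases that inactivate cytokinin.

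The deposited total counts were 12981250 to 20128757 per library. The agreement of the count table with the TPM table was checked over 14082 loci. The median deviation per library was 0.0307 to 0.0799 (log2) for 9 libraries, but 0.879 to 1.09 where the count table names *dme-2* callus. Calli were therefore compared by TPM (limma on log2(TPM + 1)) and shoots by counts (edgeR). *DME* had 3.21, 3.14 and 3.54 TPM in *dme-2* calli, against 13.2, 11.2 and 10.11 TPM in WT calli. It had 7.89, 7.49 and 7.89 TPM in *dme-2* shoots, against 19.4, 18.9 and 18.6 TPM in WT shoots. At both stages the genotypes did not overlap, and transcripts of *DME* were reduced and not absent in the mutant. Summed over 4 photosynthesis markers of shoots, levels were 85.7 to 176 TPM in *dme-2* calli and 163 to 240 TPM in WT calli, and 43467 to 47299 TPM in *dme-2* shoots and 57310 to 59590 TPM in WT shoots. Summed over 5 callus markers they were 53.4 to 75.1 TPM in *dme-2* calli and 62.4 to 78.4 TPM in WT calli, and 0.61 to 1.83 TPM in *dme-2* shoots and 2.03 to 2.83 TPM in WT shoots. The stages thus carried their labels' markers. Both sums were lower in *dme-2* shoots than in WT shoots in every library. In shoots the callus sum was near the floor and rested mostly on *WOX5*, at 0.5, 1.55 and 0.58 TPM in *dme-2* and 2.03, 1.85 and 2.27 TPM in WT. Some photosynthesis markers were summed over several loci, and not all of these were lower. ATLER-2G53550, listed for *LHCB1.1*, overlapped between the genotypes. The part of both sums in the differences of single genes in shoots was not tested.

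In shoots the segment changed about as often as the genome. Of 209 members tested, 115 (55.0%) had an adjusted p under 0.05 in edgeR, and the share over all 19114 loci was 52.8%. Of the members called, 50 were higher and 65 lower in *dme-2*, against 26.7% and 26.1% of all loci. A cut-off was also applied, of a log2 fold change over 1 or under -1 with an unadjusted p under 0.05. By it 6 members were higher and 8 lower, together 6.7% against 7.08% of all loci (4.64% higher and 2.44% lower). The median log2 fold change was -0.03 over the members and -0.00 over all loci. In these bulk libraries, fewer cells that use a gene and less RNA per cell cannot be told apart.

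In calli few loci were called anywhere, and the members took a larger share. Limma gave an adjusted p under 0.05 to 3 of 189 members (1.59%), against 0.141% of all loci (24 of 17029), and all 3 were lower in *dme-2* calli, as were 0.0881% of all loci. This count fell to 1 without *dme-2* callus replicate 1 or WT callus replicate 1, and to 0 without WT callus replicate 2 or 3. Over all loci, calls fell to 4 in either of the first 2 fits and to 1 in either of the last 2. By the cut-off 8 members differed (4.23%), against 1.76% of all loci. At an unadjusted p under 0.05 there were 11 members higher and 19 lower (15.9%), against 8.06% of all loci (4.6% higher and 3.46% lower). The size of the differences was also larger in the segment, with a median of 0.208 over the members and 0.164 over all loci on the log2(TPM + 1) scale, whatever their sign. In shoots this size was 0.255 over the members and 0.264 over all loci.

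Changes in the same direction at both stages were counted as loci whose 3 *dme-2* libraries lay all above or all below the 3 WT libraries at each stage. This held for 16 of the 203 members at 1 TPM or more (7.88%), against 3.17% of all 18813 such loci. On the rest of chromosome 5 the share was 3.31%, and on the other chromosomes it was 3.05%. Of the 16 members, 10 were higher and 6 lower in *dme-2*, against 1.97% and 1.2% of all loci. Members without overlap in opposite directions were 8 (3.94%), against 3.65% of all loci. The cut-off at both stages in the same direction was met by 2 members of 182 (1.1%), against 0.236% of all loci, and in opposite directions by 0, against 0.18%. At an unadjusted p under 0.05 at each stage (edgeR in shoots, limma in calli), 11 members (6.04%) moved the same way and 6 (3.3%) opposite ways, against 2.24% and 2.57% of all loci. Averaged over the stages in 1 limma fit of all 12 libraries, 26 of 203 members (12.8%) were called, 14 higher and 12 lower, against 9.13% of all loci (6.08% higher and 3.06% lower). Of the 16 members without overlap, 15 were among these 26, and 14 of the 16 also did not overlap in shoots when CPM, counts scaled to the total of their library, replaced TPM. Both counts use the libraries by which the 16 were picked, so neither is separate support. Without WT callus replicate 3 the number without overlap was 25 (12.3%), against 5.78% of all loci. With fewer libraries groups overlap less easily, so this number could rise but hardly fall. Without WT callus replicate 1 only 1 member met the cut-off at both stages.

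**Figure D1:**
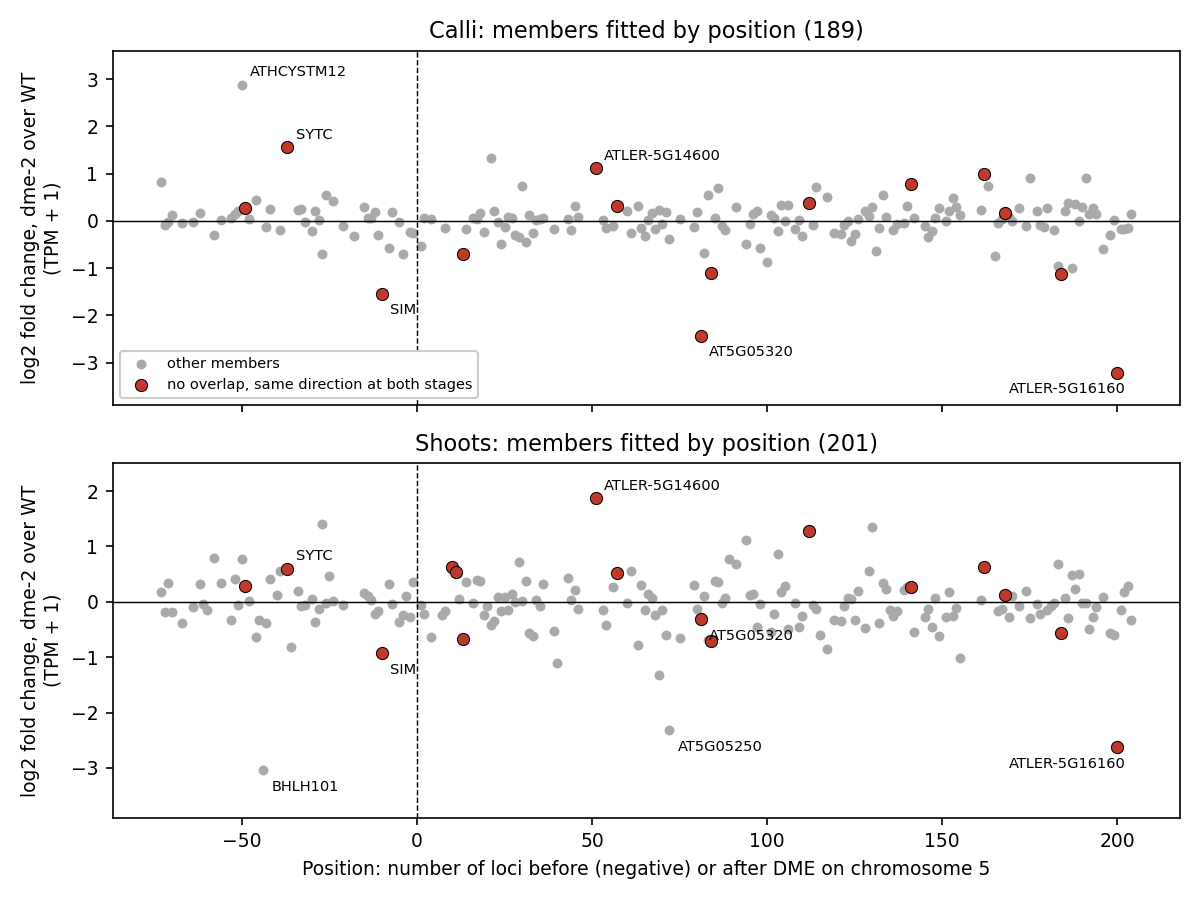
Log2 fold change of *dme-2* over WT on the log2(TPM + 1) scale (y axis) for members fitted in calli (top, 189) and shoots (bottom, 201), by the number of loci before or after *DME* (x axis, dashed line at *DME*). Large red points are the members without overlap in the same direction at both stages; 2 of the 16 were below the TPM minimum in calli and appear only in shoots, and the red points lie on both sides of *DME* and out to 200 loci after it.

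The most complete change was the loss of ATLER-5G16160, a locus with no Col homolog that lies 200 loci after *DME*. It was listed at 0 TPM in all 3 *dme-2* calli, against 7.48, 10.01 and 7.43 TPM in WT calli. It was again listed at 0 TPM in all 3 *dme-2* shoots, against 4.97, 5.74 and 4.88 TPM in WT shoots. No *dme-2* library came near any WT library at either stage. Counts in shoots were 3, 0 and 2 in *dme-2*, against 179, 211 and 202 in WT. Per total count the WT level was thus 129 times that of *dme-2* (95% exact interval 54.9 to 399, counting error only). The log2 fold change was -6.86 ± 0.31 (SE derived from the F statistic, adjusted p = 2.67e-15 in edgeR). The exact interval is wider than this SE implies. In calli the log2 fold change was -3.21 ± 0.21 on the log2(TPM + 1) scale (SE, adjusted p = 0.00769 in limma). In the count table the columns named for *dme-2* callus hold 291, 305 and 347 counts of this locus, against 224, 466 and 333 in WT calli. By these columns it was not lost in *dme-2* calli, which leaves its loss in calli resting on the TPM columns. The same columns contradict the TPM for *DME* as well. They hold 2126, 2279 and 2542 counts of *DME*, against 1001, 1317 and 1070 in WT calli, although its TPM were lower in *dme-2* calli. Loci listed at 0 TPM in all *dme-2* libraries but at 1 TPM or more in every WT library numbered 3 in the whole series. One of the others, also on chromosome 5, is ATLER-5G19310, which is homologous to the succinate dehydrogenase genes *SDH3-1* and *SDH3-2* and lies 492 loci after *DME*.

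*SIM* (*SIAMESE*), which encodes an inhibitor of cyclin-dependent kinases and lies 10 loci before *DME*, was lower in *dme-2* at both stages. It had 24.4, 22.8 and 23.6 TPM in *dme-2* calli, against 70.0, 73.1 and 68.4 TPM in WT calli. In shoots it had 13.8, 15.5 and 7.5 TPM in *dme-2*, against 23.1, 23.01 and 23.4 TPM in WT. The replicates of calli were close together and far from those of the other genotype, while the *dme-2* shoots were spread more widely. The log2 fold change was -1.54 ± 0.11 in calli (SE, adjusted p = 0.00816 in limma) and -0.43 ± 0.15 in shoots (adjusted p = 0.0156 in edgeR). The call in shoots was lost without *dme-2* shoot replicate 3, WT shoot replicate 1 or WT shoot replicate 3 (adjusted p of up to 0.0979 in edgeR). A test of the difference between the stages gave 0.62 ± 0.27 (adjusted p = 0.186 in limma), which does not show that they differed or that they did not.

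AT5G05320, a predicted FAD/NAD(P)-binding oxidoreductase 81 loci after *DME*, fell to 5.08, 5.25 and 4.21 TPM in *dme-2* calli, against 30.2, 32.5 and 28.5 TPM in WT calli. In shoots it had 1.51, 1.77 and 1.72 TPM in *dme-2* and 2.38, 2.20 and 2.37 TPM in WT. It was expressed mainly in WT calli, and the genotypes did not overlap at either stage. The log2 fold change was -2.43 ± 0.14 in calli (adjusted p = 0.00497 in limma) and -0.55 ± 0.23 in shoots (adjusted p = 0.0457 in edgeR), and the call in shoots was lost in 10 of 11 other settings, up to an adjusted p of 0.129. The reduction was larger in calli, by 2.11 ± 0.16 (adjusted p = 3.00e-05 for the interaction in limma). The calls in calli of these 3 members rested on few libraries. *SIM* and ATLER-5G16160 lost theirs without *dme-2* callus replicate 1 or without any 1 of the WT calli (adjusted p of 0.0636 to 0.0960 for *SIM* and 0.0567 to 0.0960 for ATLER-5G16160). AT5G05320 lost its call without WT callus replicate 2 (adjusted p = 0.0959) or replicate 3 (adjusted p = 0.0552), all in limma.

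*GIR1*, whose product is known to interact with the epidermal regulator GLABRA2, lies 184 loci after *DME*. It had 7.66, 7.83 and 7.49 TPM in *dme-2* calli, against 16.5, 17.2 and 19.8 TPM in WT calli, and 15.1, 10.5 and 11.1 TPM in *dme-2* shoots, against 15.6, 19.4 and 20.5 TPM in WT shoots. The groups were well apart in calli and came close to each other in shoots. The remaining members that were lower at both stages were *DAP2*, a predicted zinc-dependent exopeptidase 13 loci after *DME*, and AT5G05350, a PLAC8 family gene 84 loci after it. *DAP2* had 7.09 to 9.51 TPM in *dme-2* calli, against 12.8 to 15.6 TPM in WT calli, and 18.9 to 21.02 TPM in *dme-2* shoots, against 30.7 to 32.2 TPM in WT shoots. AT5G05350 was a low gene at both stages, with 0.60 to 0.90 TPM in *dme-2* calli, against 2.42 to 3.05 TPM in WT calli. Averaged over the stages in limma, *GIR1* fell by 0.84, *DAP2* by 0.69 and AT5G05350 by 0.91 on the log2 scale, with adjusted p between 0.000317 and 0.000654.

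ATLER-5G14600, homologous to the adjacent cystatin/monellin family genes AT5G05040 and AT5G05060 and 51 loci after *DME*, had the largest rise over both stages among the 16 members. It had 39.98, 38.6 and 32.4 TPM in *dme-2* calli, against 12.8, 20.7 and 16.6 TPM in WT calli. In shoots it had 26.3, 28.2 and 20.2 TPM in *dme-2*, against 5.54, 6.08 and 6.49 TPM in WT. Every *dme-2* library was above every WT library of its stage. The log2 fold change was 1.76 ± 0.17 in shoots (adjusted p = 7.20e-09 in edgeR) and 1.496 ± 0.12 over both stages (adjusted p = 4.34e-05 in limma). In calli alone it was 1.12 ± 0.19 and missed the threshold (adjusted p = 0.126 in limma). Since the locus has more than 1 homolog, reads of near-identical copies could have been shared among them. Another cystatin/monellin family gene, AT5G05110, lies 57 loci after *DME* and was higher by 0.41 ± 0.08 over both stages (adjusted p = 0.00934 in limma).

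*SYTC*, 37 loci before *DME*, encodes a protein with a calcium-dependent lipid-binding domain. It had 37.9, 41.1 and 51.6 TPM in *dme-2* calli, against 17.4, 13.2 and 11.6 TPM in WT calli, and 5.76, 6.20 and 4.70 TPM in *dme-2* shoots, against 3.23, 4.33 and 2.55 TPM in WT shoots. Here the groups were farthest apart in calli, where the gene was most expressed, and the log2 fold change of 1.57 ± 0.19 just missed the threshold (adjusted p = 0.0518 in limma). It passed in shoots at 0.80 ± 0.14 (adjusted p = 3.36e-05 in edgeR) and over both stages at 1.08 ± 0.14 (adjusted p = 0.000720 in limma).

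*JOX2*, 112 loci after *DME*, encodes an oxygenase that inactivates jasmonate. It had 476, 454 and 591 TPM in *dme-2* calli, against 394, 354 and 411 TPM in WT calli, and 38.2, 39.4 and 38.4 TPM in *dme-2* shoots, against 17.6, 15.3 and 13.4 TPM in WT shoots. It was the opposite case, with a small gap in calli and a wide one in shoots (log2 fold change 1.42 ± 0.08, adjusted p = 2.79e-13 in edgeR). The interaction of genotype and stage was 0.90 ± 0.17 (adjusted p = 0.00711 in limma).

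**Figure D2:**
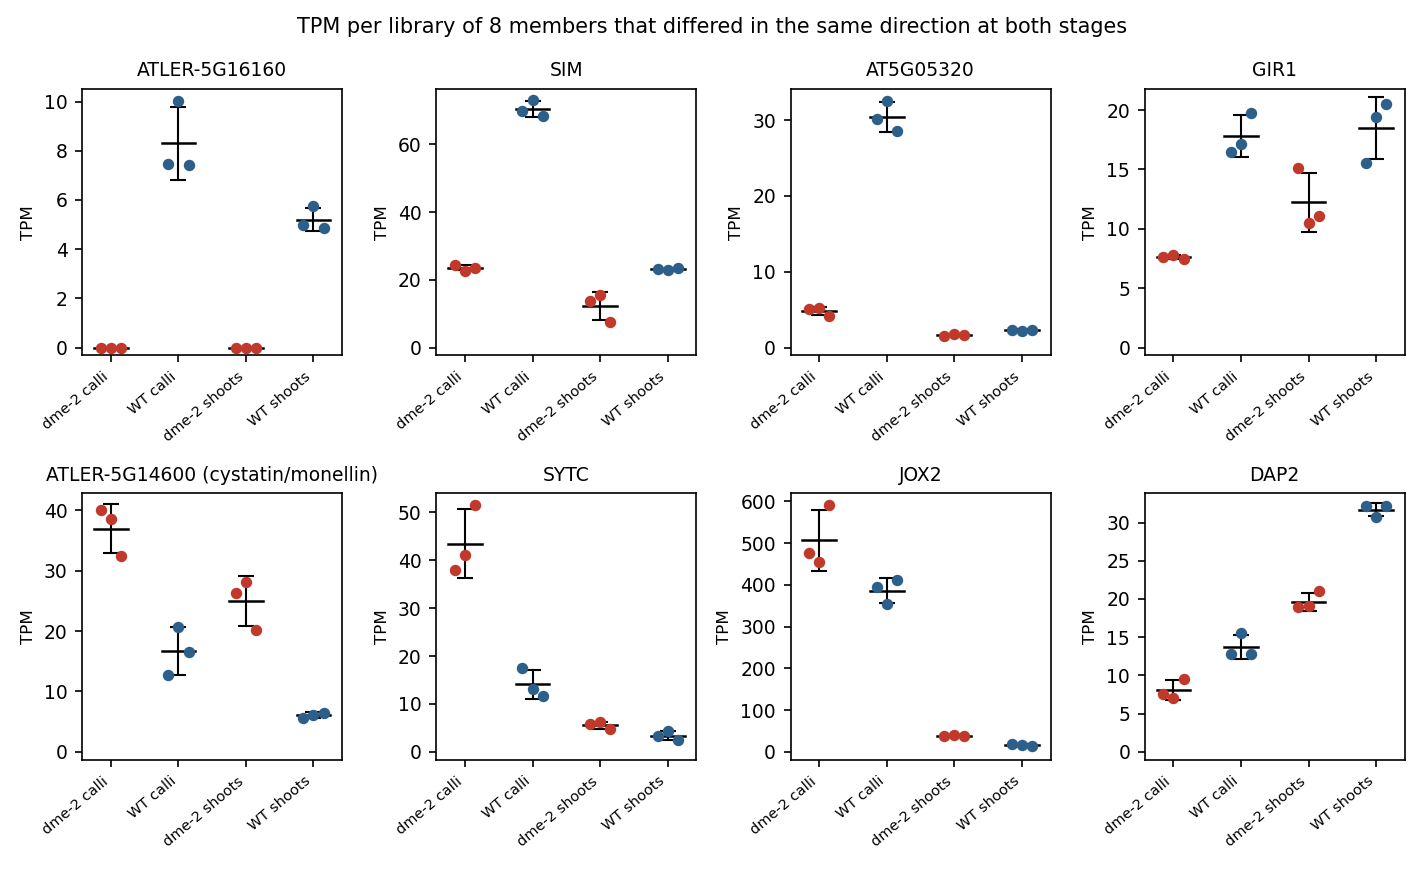
TPM per library (y axis, starting near 0) for 8 members that did not overlap between genotypes in the same direction at both stages, in *dme-2* calli, WT calli, *dme-2* shoots and WT shoots (3 libraries each). Points are libraries, wide bars the mean and whiskers ± 1 SD; ATLER-5G16160 is at 0 in every *dme-2* library, and *SIM*, AT5G05320 and *GIR1* are farther apart in calli than in shoots.

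The other members that were higher at both stages moved less. A pair of neighbouring ankyrin repeat loci 10 and 11 loci after *DME*, ATLER-5G14170 and ATLER-5G14180, rose by 0.80 and 0.70 on the log2 scale in shoots (adjusted p of 1.64e-05 and 0.000515 in edgeR) and were below 1 TPM in all calli. The first of them has more than 1 homolog, so its reads may be shared with copies. AT5G06060, a Rossmann-fold protein gene 162 loci after *DME*, had 13.4 to 14.97 TPM in *dme-2* calli, against 4.32 to 8.85 TPM in WT calli, and 41.8 to 48.1 TPM in *dme-2* shoots, against 28.4 to 29.96 TPM in WT shoots. *UGT76C1*, which encodes a cytokinin glucosyltransferase and lies 141 loci after *DME*, had 3.71 to 4.0 TPM in *dme-2* calli, against 1.44 to 2.14 TPM in WT calli. AT5G04090, annotated as a histidine-tRNA ligase and 49 loci before *DME*, was higher by 0.29 ± 0.08 over both stages (adjusted p = 0.0374 in limma), a call lost in 10 of 15 other settings (up to an adjusted p of 0.101). The smallest difference was that of *XPO7*, which is named for a nuclear export receptor, at 0.14 ± 0.06 (adjusted p = 0.206 in limma). It was the only 1 of the 16 that the test over both stages did not call, and in CPM *XPO7* and AT5G04090 overlapped between the genotypes in shoots. The annotated functions of the 16 members thus differed. Their levels were like those of the other 187, since the mean over 12 libraries had a median of 15.3 TPM among the 16 and of 15.03 TPM among the others.

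Across all members fitted at both stages, the differences in calli and shoots went together only weakly. Over 183 members Pearson's r was 0.31 and Spearman's rho 0.08, and r was 0.17 without ATLER-5G16160. The same sign was seen in 52.5% of members, against 43.9% of all 16033 loci, where r was -0.06. No library is shared between the stages, but genes are not independent replicates and no test is given. The members without overlap in opposite directions are a like group to set beside the 16. Among these 8, *PLL12*, a pectate lyase-like gene, had 2.08 to 2.59 TPM in *dme-2* calli, against 2.94 to 5.45 TPM in WT calli, but 11.99 to 14.3 TPM in *dme-2* shoots, against 3.89 to 4.92 TPM in WT shoots. *PYL5*, an abscisic acid receptor gene, had 77.1 to 93.6 TPM in *dme-2* calli, against 114 to 122.8 TPM in WT calli, and 34.3 to 40.8 TPM in *dme-2* shoots, against 14.1 to 19.9 TPM in WT shoots. *PRX52*, a class III peroxidase gene, went the other way, with 70.4 to 119 TPM in *dme-2* calli, against 58.8 to 62.9 TPM in WT calli, and 5.07 to 6.80 TPM in *dme-2* shoots, against 8.99 to 11.2 TPM in WT shoots. An interaction of genotype and stage was called for 26 members (12.8%), against 10.9% of all loci. These 26 included all 8 members with opposite directions and 3 of the 16 with the same direction. When any 1 of the 6 shoot libraries was left out, 14 to 17 members were called, and the share over all loci is not given for these fits.

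**Figure D3:**
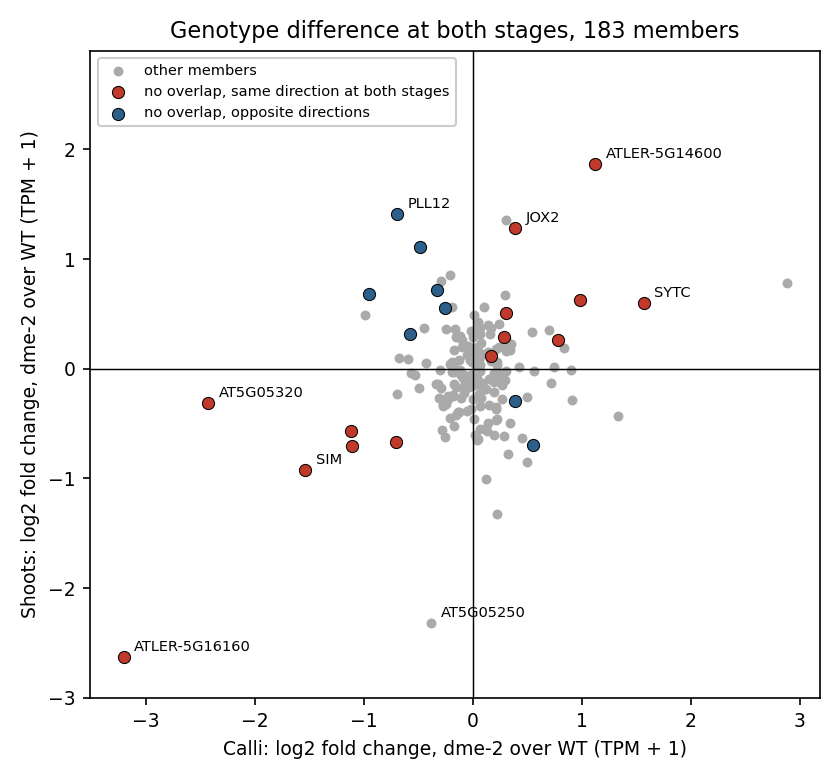
Log2 fold change of *dme-2* over WT in calli (x axis) against shoots (y axis), both on the log2(TPM + 1) scale, for 183 members fitted at both stages. Red points did not overlap in the same direction and blue points in opposite directions; most grey points lie near 0 on both axes.

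By position, the members without overlap in the same direction were spread over the segment. Within 25 loci of *DME* there were 4 of 35 (11.4%), at 26 to 50 loci 2 of 37 (5.41%), at 51 to 100 loci 4 of 49 (8.16%) and beyond 100 loci 6 of 82 (7.32%). The 4 within 25 loci include the neighbouring ankyrin repeat loci ATLER-5G14170 and ATLER-5G14180, which were below 1 TPM in all calli and were not fitted there. The higher share next to *DME* thus rests in part on this pair. Calls over both stages in limma made up 17.1%, 13.5%, 12.2% and 11% at the same distances, against 9.13% of all loci. Each distance holds few such loci, and a trend with distance was not tested. Of the members without overlap, 3 lay before *DME* and 13 after it, while the other 187 members had 47 before and 140 after. The gaps between neighbours among the 16 ran from 1 to 38 loci, with a median of 16. For the 3 members nearest to *DME* on each side that could be fitted at both stages, no log2 fold change passed 1 in size. Before it, AT5G04520, *MTM2* (a myotubularin-like phosphatase gene) and AT5G04550 had log2 fold changes in shoots of -0.26, -0.25 and 0.37. Of these *MTM2* and AT5G04550 were called (adjusted p of 0.00315 and 9.74e-07 in edgeR), and AT5G04520 was called lower over both stages (-0.46, adjusted p = 0.0174 in limma). That call was lost without WT or *dme-2* shoot replicate 2 or 3 (adjusted p of up to 0.0514 in limma). AT5G04520 did not overlap in calli, at 14.6, 12.2 and 11.5 TPM in *dme-2* calli, against 20.7, 18.9 and 24.3 TPM in WT calli, but was not called there (-0.69, adjusted p = 0.227 in limma). After *DME*, *SIR*, which encodes sulfite reductase, had 252 to 261 TPM in *dme-2* shoots and 260 to 269 TPM in WT shoots and was not called (adjusted p = 0.579 in edgeR). In calli it had 98.5, 124.04 and 67.0 TPM in *dme-2*, against 124.8, 140.1 and 144 TPM in WT, without overlap and again not called (-0.53, adjusted p = 0.609 in limma). AT5G04600, an RNA-binding protein gene, and *BIOF*, a gene of biotin synthesis, were lower in *dme-2* shoots by edgeR, at -0.26 and -0.65. *KCS19*, 3 loci before *DME*, and AT5G04610, 3 loci after it, were too low in calli to be fitted and were not called in shoots (0.13 and -0.61, adjusted p of 0.0905 and 0.214 in edgeR).

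Along the chromosome, counted in successive runs of 100 loci, the share without overlap in the same direction was 10.3%, 6.76% and 6.17% in the 3 runs that hold the segment. It was high on both sides of them as well, at 8.45% in the run before and at 7.25% and 12% in the 2 runs after. Over these 6 runs, chosen after their values were seen, it was 8.45% (37 of 438 loci at 1 TPM or more, 23 higher and 14 lower), and over the next 12 runs it was 2.27% (21 of 927). The elevated stretch thus reached beyond the segment as defined. It was not the only such stretch. On chromosome 5, runs 21 to 23 gave 9.95% (22 of 221), and on chromosome 1, runs 32 to 38 gave 9.83% (35 of 356), both again chosen after their values were seen. Outside these, shares were 2.61% in the later runs of chromosome 5, 2.54% in the other runs of chromosome 1 and 3.06% on chromosomes 2 to 4, where the later runs of chromosome 5 include a single run at 12.5% that rests on 4 of 32 loci. Of 207 runs on the other chromosomes, 39 were above 5% and 4 above 10%. The highest, 15.8%, was on chromosome 1. Of the 24 loci called in calli, 5 lay in the first 9 runs of chromosome 5, including *DME*, 2 in runs 21 to 23 and 9 in runs 32 to 38 of chromosome 1. With calls over both stages in limma in place of overlap, the shares were 13.9% for the 6 runs around *DME*, 20.4% for runs 21 to 23 and 18.3% for the runs of chromosome 1, against 9.13% of all loci. The runs around *DME* therefore held more shared changes than most of the genome, and shares as high were seen at 2 places away from it. Whether linked DNA or the loss of *DME* gave these changes was not tested.

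**Figure D4:**
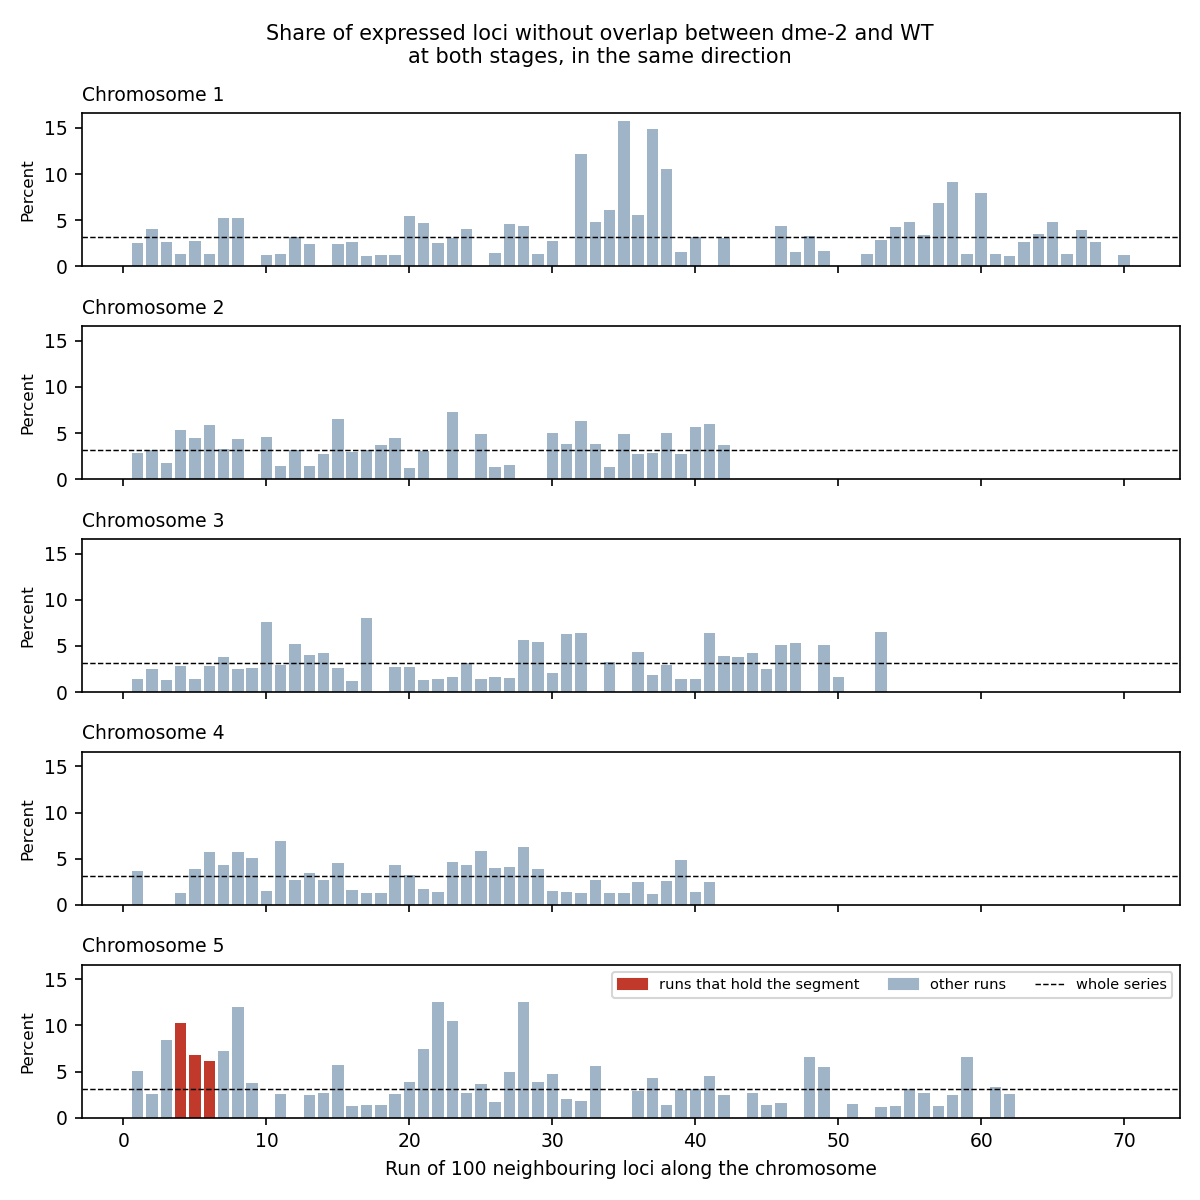
Percent of loci at 1 TPM or more whose *dme-2* and WT libraries did not overlap in the same direction at both stages (y axis), in successive runs of 100 loci along chromosomes 1 to 5 (x axis). Red bars are the 3 runs that hold the segment and the dashed line is the share over all loci (3.17%); bars of comparable height stand on chromosome 1 and farther along chromosome 5.

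Several members changed in shoots and were silent, or were not called, in calli. The lack of a call in calli does not show that there was no difference. *BHLH101*, 44 loci before *DME*, is a transcription factor of subgroup Ib that promotes iron uptake. It had 0, 0.25 and 0 TPM in *dme-2* shoots, against 9.05, 7.77 and 6.87 TPM in WT shoots, and was listed at 0 TPM in all 6 callus libraries. It was nearly off in *dme-2* shoots and off in calli of both genotypes. Counts were 0, 2 and 0 in *dme-2* shoots, against 88, 83 and 85 in WT shoots, a WT level 139 times that of *dme-2* per total count (95% exact interval 38.2 to 1157, counting error only). The other subgroup Ib genes *BHLH100*, *BHLH38* and *BHLH39*, on chromosomes 2 and 3 and looked up after this value was seen, had log2 fold changes in shoots of -4.79, -4.63 and -5.18 (all called in edgeR). They too were listed at 0 TPM in all calli, so the fall of *BHLH101* had counterparts on other chromosomes.

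The *NAS1* locus, 40 loci after *DME*, is listed as homologous to *NAS1* and *NAS2*, genes for nicotianamine synthase, which makes a metal chelator. It had 32.4, 37.8 and 33.9 TPM in *dme-2* shoots, against 84.5, 76.6 and 67.3 TPM in WT shoots, with a log2 fold change of -1.15 ± 0.06 (adjusted p = 1.30e-13 in edgeR), and below 2 TPM in all calli. AT5G05250, an uncharacterized gene 72 loci after *DME*, had 8.88, 12.4 and 11.1 TPM in *dme-2* shoots, against 60.4, 57.8 and 53.4 TPM in WT shoots (-2.28 ± 0.09, adjusted p = 1.01e-16 in edgeR). Its callus levels overlapped, at 1.48 to 16.5 TPM in *dme-2* and 6.04 to 12.7 TPM in WT. Over both stages its log2 fold change was -1.35 and just missed the threshold (adjusted p = 0.0547 in limma). AT5G05220, 69 loci after *DME* and likewise uncharacterized, was lower in *dme-2* shoots by 1.92 ± 0.41 on the log2 scale (adjusted p = 0.000343 in edgeR). In the other direction *SYP31*, a Golgi syntaxin gene 130 loci after *DME*, had 15.5 to 16.6 TPM in *dme-2* shoots, against 4.88 to 6.68 TPM in WT shoots, with overlap in calli. It was called over both stages (0.83, adjusted p = 0.000758 in limma) and for the interaction (1.05, adjusted p = 0.00926 in limma). *BHLH101*, *PLL12*, AT5G05250 and AT5G05220 and several of the 16 members above were chosen after their values were seen.

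**Figure D5:**
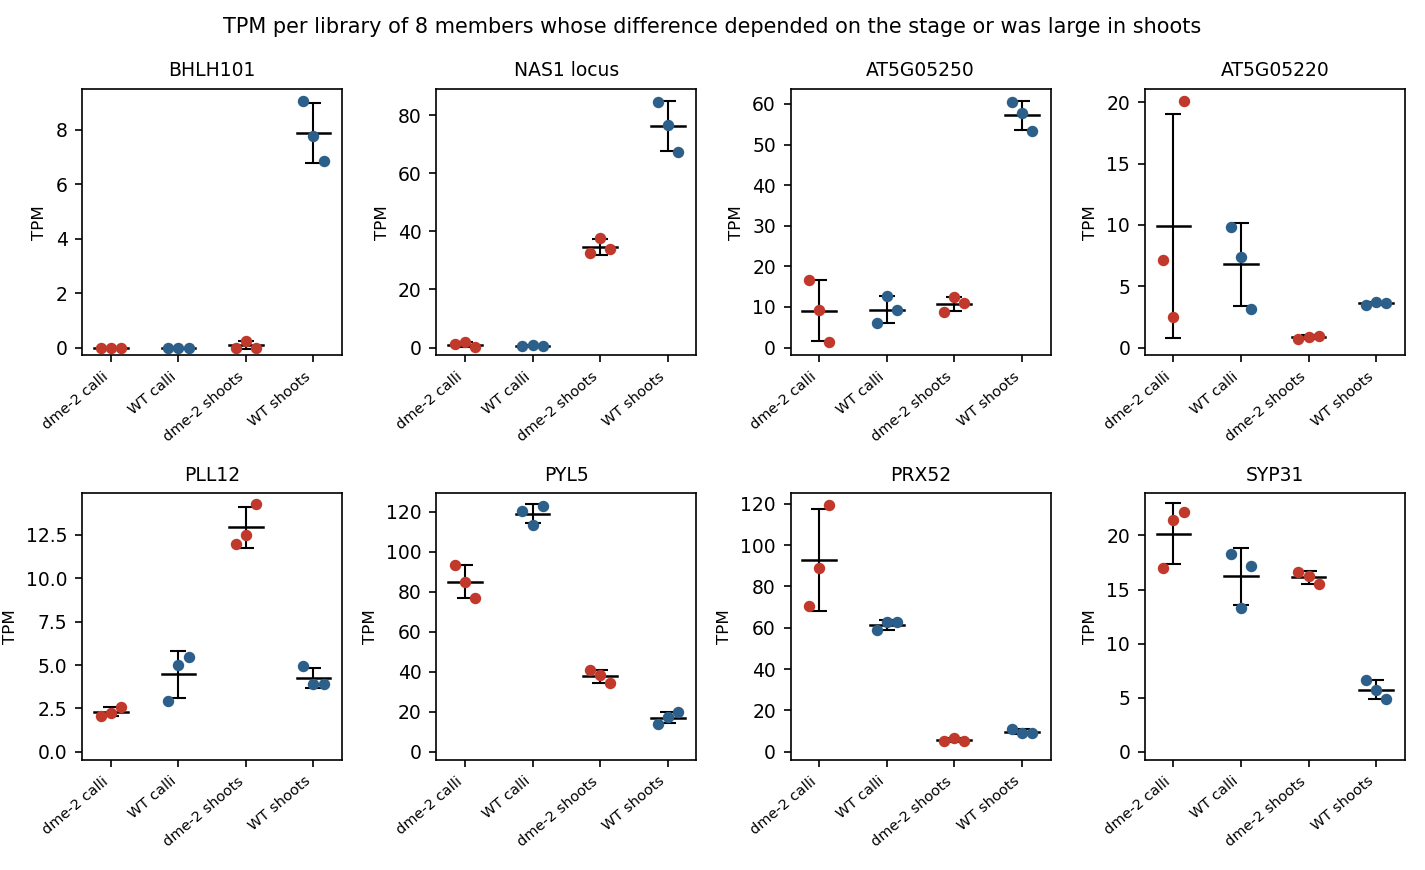
TPM per library (y axis, starting near 0) for 8 members whose difference between genotypes was large in shoots or depended on the stage, in *dme-2* calli, WT calli, *dme-2* shoots and WT shoots (3 libraries each). Points are libraries, wide bars the mean and whiskers ± 1 SD; *BHLH101* was at or near 0 outside WT shoots, and *PLL12* and *PYL5* were below WT in calli and above it in shoots.

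Some members were also grouped by function. The groups held 64 of the 274 members, 63 of them after *DME* and 1 before it, so they are not complete classes. Outside the groups, and named after their values were seen, the regulators *ELF6* (0.20) and *NAC2* (0.18) were called higher and *BHLH101* lower in *dme-2* shoots by edgeR, *ZAT6* (0.04) was not called, and of chloroplast genes *CPSRP54* (-0.36) was called lower and *VTE5* (0.04) was not called. The call of *ELF6* was lost in 6 of 11 other settings (up to an adjusted p of 0.238). None of the 8 groups had a call in calli by limma after adjustment. At an unadjusted p under 0.05 they had 3 genes higher and 6 lower of 52 tested, against 4.6% and 3.46% of all loci. The share of lower genes was thus above that of all loci. The following counts are from shoots by edgeR, where 52.8% of all loci were called. Of the tandem *UGT76C* genes, glucosyltransferases of which *UGT76C1* and *UGT76C2* act on cytokinins, 3 were present and all were called, *UGT76C1* (0.23) and *UGT76C2* (0.36) higher and *UGT76C4* (-0.60) lower. The call of *UGT76C1* was lost in 7 of 11 other settings (up to an adjusted p of 0.115), and those of *UGT76C2* and *UGT76C4* were lost without WT shoot replicate 3 (adjusted p of 0.0507 and 0.0523 in edgeR). Among 9 regulators of transcription and chromatin tested, 3 were higher and 2 lower. *DREB2A*, a drought-response factor, had 28.5 to 32.2 TPM in *dme-2* shoots, against 18.6 to 19.5 TPM in WT shoots, while *SUVH1*, a reader of methylated DNA, had 8.03 to 8.78 TPM in *dme-2* shoots, against 11.99 to 12.9 TPM in WT shoots. Of 11 genes of hormone and amino acid metabolism, 4 were higher, among them *JOX2* and *PYL5*, and 3 lower, among them *BIOF* and *RMV1*, a polyamine and amino acid transporter gene (-0.92).

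Among 8 members of the chloroplast group, 5 were lower and 1 higher in *dme-2* shoots, with a median of -0.37, against -0.00 over all loci. *NOL*, for a subunit of chlorophyll b reductase, fell by 0.54, *FAD8*, for a fatty acid desaturase, by 0.48 and *EGY2*, for a chloroplast protease, by 0.46. The largest fall was that of *CHIL* (by 0.64), which is related to chalcone isomerase and known for a part in flavonoid synthesis. The summed photosynthesis markers given above were lower in the same libraries, and their part in these values was not tested. In core protein machinery 4 of 6 were lower and none higher, among them *RPN8A* of the proteasome (-0.20) and the translation factor gene *EIF2 ALPHA* (-0.46). In cell division and nuclear structure 3 of 6 were lower and none higher: AT5G05510 of the Mad3/BUB1 family (-0.75), *EMB2771*, for a predicted subunit of the anaphase-promoting complex (-0.57), and *NEDD1*, a microtubule gene (-0.25). The call of *NEDD1* was lost in 5 of 11 other settings (up to an adjusted p of 0.107), and between 1 and 3 genes of the group were called lower over those settings. In membrane traffic 2 of 5, *SYP31* (1.47) and *ALA1*, for a phospholipid flippase (0.35), were higher and none lower. In the cell wall group 2 of 5 were higher, *LAC12*, a laccase gene (0.98), and *CEV1*, which encodes the cellulose synthase CESA3 (0.33), and *PRX52* was lower (-0.67). Except in the chloroplast group, medians of the groups lay between -0.20 and 0.23.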

How the data were processed

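Stranded mRNA libraries of *dme-2* and WT calli and de novo shoots were grouped by the sample labels, with 3 biological replicates per group. Per the labels, the submitters used STAR 2.7.10a and RSEM 1.3.1, and the methods name the L*er* genome and a two-pass mode. The authors deposited a table of whole-number counts, not normalized, and a table of TPM values, which are corrected for length and sum to the same total in each library, both with 27147 loci. How the counts were made is not given in the sources used here. No column was left unmatched (0).

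For shoots, counts of the 6 libraries were fitted in edgeR 4.0.16 (TMM factors, filterByExpr, quasi-likelihood F-test). The SE printed with an edgeR fold change was not estimated by the fit. It is the size of the fold change divided by the square root of the F statistic, and it can be too small where counts are few. For calli, log2(TPM + 1) of 6 libraries was fitted in limma 3.58.1 with a mean-variance trend, keeping loci whose mean reached 1 TPM. Counts were not used there, since those named for *dme-2* callus disagree with the TPM of the same name. The mean over both stages and the interaction came from limma over 12 libraries. R 4.3.3 and Python 3.11.15 were used. P-values were adjusted by the Benjamini-Hochberg method over all loci tested. A fold change on the log2(TPM + 1) scale understates that of low genes. The median SD of log2(TPM + 1) over members was 0.208 in *dme-2* calli, 0.188 in WT calli, 0.103 in *dme-2* shoots and 0.0876 in WT shoots, so calli are less precise, and the fits over 12 libraries, which share 1 spread, may give errors too small for calli and too large for shoots. edgeR was also run on simulated counts and limma on simulated TPM, both with known changes, which for limma lay only in better expressed loci. The outcome of these runs is not given here.

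Members and lists were chosen with earlier results of these data known. Genes were named if they met the cut-off at both stages, had an adjusted p under 0.05 in calli, were among the 3 members nearest to *DME* on each side that were fitted at both stages, or were among the up to 4 largest called changes in shoots of a functional group. Genes named beyond this rule were chosen after their values were seen. Names come from the Col homologs in the deposited tables, and 270 of 274 members were matched to RefSeq TAIR10.1. Its coordinates and sequences were not used, since the reads were mapped to another build. The alternatives were RLE normalization, no filter, DESeq2 1.42.0, limma in shoots, a pseudocount of 0.1, the count columns for calli, all 12 libraries in 1 fit, a minimum of 5 TPM, the replicate number as a block and each library left out. Members within 100 loci of *DME*, for the counts of calls, and the position of calls over both stages were added after seeing the data. For the 3 loci left out of the range besides *DME*, no values are given.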

Additional observations from a re-analysis of the deposited data

Results flagged for a closer look

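The genotype difference differed between shoots and calli by the interaction test in limma (shoot difference minus callus difference, log2(TPM + 1), adjusted p under 0.05) in 26 members. Among those named, it was negative for *BHLH101* (-3.04), the *NAS1* locus (-1.36), *PRX52* (-1.25), *SYTC* (-0.97), *NUDX27* (-0.92), *EGY2* (-0.68) and *EIF2 ALPHA* (-0.67). It was positive for AT5G05320 (2.11), *PLL12* (2.11), *PYL5* (1.59), the locus homologous to *LOG7* (1.47), *SYP31* (1.05), *JOX2* (0.90) and AT5G04550 (0.61). For *BHLH101* and the *NAS1* locus calli were at or near 0 in both genotypes, so the value mostly restates the difference in shoots. For *SYTC* and *JOX2* the direction was the same at both stages and only the size differed. With any 1 of the 6 shoot libraries left out, 14 to 17 members were called, with no share over all loci given for these fits. The interactions of *SYTC*, the *NAS1* locus, the *LOG7* homolog, *EGY2*, *EIF2 ALPHA* and AT5G04550 were lost in 7 to 13 of 15 other settings, with adjusted p of up to 0.234 in limma.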

How the results depend on the processing

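Of the counts of members, those without overlap at both stages ranged from 16 to 25 when each library was left out, those called in shoots from 96 to 120, those called in calli from 0 to 4, those called over both stages from 18 to 31, those with an interaction from 14 to 38 and those past the cut-off at both stages from 1 to 3. Leaving out a library cannot make separate groups overlap, so the first of these counts could hardly fall below 16. The shares over all loci moved as well. With each library left out, 3.48% to 6.16% of all loci did not overlap. In calli 0.00585% to 0.0531% of all loci were called, and over both stages 5.7% to 11.5%, against 8.82% to 15.3% of members. For shoots, the interaction and the cut-off, shares over all loci in these fits are not given. Restricted to the 173 members within 100 loci of *DME*, counts were 69 in shoots, 17 over both stages, 1 past the cut-off at both stages and 10 without overlap. Of the 121 at 1 TPM or more, 14% were called over both stages, against 12.8% in the whole segment and 9.13% of all loci. Those without overlap were 8.26%, against 7.88% and 3.17%. For shoots and the cut-off, shares of the members tested within this distance are not given. In calli, limma over all 12 libraries in 1 fit called 14 members (6.9%, against 2.22% of all loci), and edgeR on the count columns called 167 (80.7%, against 82.2%), on columns that contradict the TPM. An adjusted p under 0.05 at both stages in place of the unadjusted left 1 member past the cut-off.

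Replicate numbers did not pair the samples, with correlations of the deviations of same-numbered libraries of -0.39 to -0.05 in calli and -0.09 to -0.01 in shoots. Between calli of different numbers they ran from -0.24 to 0.46, highest for *dme-2* replicate 2 with WT replicate 3. A pairing of calli under other numbers was not tested, and the replicate block used the numbers as labelled. With the replicate block, 0 members were called in calli and 15 had an interaction, and the callus calls of *SIM*, AT5G05320 and ATLER-5G16160 were lost (adjusted p of 0.315, 0.191 and 0.191 in limma).

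For single genes, 139 results were recomputed in 1824 alternatives, of which 1599 stayed on their side of the threshold, 209 lost a call, 16 gained one and 0 reversed a called value. The callus difference of ATLER-5G14600, not called by TPM, was -1.98 by the count columns. Precision in calli was limited by the spread between replicates, and the counts of runs rest on few loci each.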

Other observations

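Among the 274 members, *ATHCYSTM12*, 50 loci before *DME* and named after its values were seen, had the largest callus difference of those higher in *dme-2*. It had 18.1, 19.8 and 0 TPM in *dme-2* calli, against 0, 0 and 0 TPM in WT calli, and 48.6, 24.7 and 16.9 TPM in *dme-2* shoots, against 22.5, 3.95 and 37.7 TPM in WT shoots. Its libraries overlapped at both stages, and its log2 fold change of 2.88 was not called (adjusted p = 0.573 in limma). *NUDX27*, 191 loci after *DME*, did not overlap between genotypes in calli but did in shoots, with 27.2, 21.8 and 26.3 TPM in *dme-2* calli, against 12.5, 14.6 and 11.8 TPM in WT calli, and 71.9, 85.3 and 77.0 TPM in *dme-2* shoots, against 87.6, 72.5 and 76.6 TPM in WT shoots. It was called over both stages (0.44, adjusted p = 0.00861 in limma) and for the interaction, but not in calli alone (adjusted p = 0.115 in limma). A locus homologous to *LOG7* and to 3 other *LOG* genes of cytokinin activation, 187 loci after *DME*, had 6.49, 8.98 and 11.8 TPM in *dme-2* calli, against 20.2, 18.9 and 16.6 TPM in WT calli, and 6.24, 3.50 and 4.24 TPM in *dme-2* shoots, against 2.82, 4.39 and 2.01 TPM in WT shoots. Its groups were apart in calli and overlapped in shoots, where it was called higher (0.55, adjusted p = 0.0190 in edgeR, lost without *dme-2* shoot replicate 1 or WT shoot replicate 3 and in limma, up to 0.170), and reads of its homologs may be shared.

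Farther along chromosome 5, the adjacent loci AT5G08360 and *AGAL2*, 403 and 404 loci after *DME*, also met the cut-off at both stages. On the rest of chromosome 5 it was met in the same direction by 8 of 3636 loci (0.22%), against 0.219% on the other chromosomes. These 8 lay up to 4408 loci from *DME*, and only the adjacent pair among them is described here. AT5G08360 had 4.63, 2.5 and 3.96 TPM in *dme-2* calli, against 0.15, 0.09 and 0 TPM in WT calli, and 1.66, 2.37 and 1.89 TPM in *dme-2* shoots, against 0.34, 0.23 and 0.19 TPM in WT shoots. *AGAL2*, an alpha-galactosidase gene, had 10.3, 11.0 and 6.25 TPM in *dme-2* calli, against 0.75, 1.79 and 2.31 TPM in WT calli, and 41.7, 42.6 and 44.3 TPM in *dme-2* shoots, against 22.3, 22.5 and 22.5 TPM in WT shoots. These neighbours were higher in every *dme-2* library of their stage. In the segment the pair of ankyrin repeat loci was the only one among the 16 members to lie side by side.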
